A study of Mus musculus with 2 samples.

Results

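Natural killer (NK) cells of the mouse colon lamina propria were examined in 2 single-cell libraries, with 1 library per group. They were chosen by the measured counts: a kept cell (200 to 6000 genes detected and at most 15% of its unique molecular identifiers, UMIs, from mitochondrial genes) was taken as an NK cell if it held a UMI of at least 3 of 8 genes, Ncr1, Klrb1c, Eomes, Klre1, Klri2, Klra4, Klra8 and Prf1, at most 1 UMI of Cd3d, Cd3e and Trac together, and none of Csf1r and Cd79a. This gave 2871 NK cells among 20052 kept cells and 21921 deposited cells. The library labelled Runx3_fl held 2718 of them and the library labelled Runx3 held 153. The study compared mice with loxP-flanked Runx3 alleles and Lyz2-Cre (RUNX3 fl/fl-Lyz2-Cre), in which Cre is driven by the promoter of the myeloid lysozyme gene, with RUNX3 fl/fl littermates, using pooled young adult male mice, and the labels name no treatment. The sample titles state neither the presence of Cre nor the number of animals, so the groups are named here by their titles. Both samples carry the label cd11b+ and were cells of a Percoll interphase stained for sorting. The study describes exclusion of dead cells by 7-AAD for its flow cytometry of such cells. Paired values below give the Runx3_fl library first and the Runx3 library second, ratios are Runx3 over Runx3_fl, and levels are UMIs per 1000000 UMIs, summed over the cells of a group (CPM). With 1 library per group no difference between the libraries could be tested, and every 95% interval covers counting error only.

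NK cells are innate lymphocytes that kill target cells by releasing perforin and granzymes and that secrete interferon gamma and chemokines. Their response is set by a balance between activating receptors and inhibitory receptors for MHC class I, among them the Ly49 family encoded by the Klra genes. The factors T-bet, encoded by Tbx21, and Eomes direct their maturation, and RUNX3, a RUNX family factor expressed in NK and T lymphocytes, is known for roles in cytotoxic lymphocytes as well as in myeloid cells.

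The promoters of the rule genes are shown first because RUNX factors bind a core sequence in DNA and because the rule did not use sequence. Of the 8 rule genes, 7 had a RefSeq window from 250 bases before to 50 bases after the transcription start, in build GRCm38.p6. The letters TGTGGT, or ACCACA for the opposite strand, occurred in a window of 4 of these 7 genes, Ncr1, Klrb1c, Klre1 and Prf1. They occurred in a window of 18.9% of the 27025 genes with a window, and in 3 of the 17 genes with a window among the 20 genes that were highest in NK cells, described further on. The first-listed windows of Ncr1 (chr7:4337465-4337764, plus strand), which encodes the activating receptor NKp46, and of Klrb1c (chr6:128788592-128788891, minus strand), which encodes NK1.1, are given 5′ to 3′ with these letters in capitals. No binding was measured here.
Ncr1: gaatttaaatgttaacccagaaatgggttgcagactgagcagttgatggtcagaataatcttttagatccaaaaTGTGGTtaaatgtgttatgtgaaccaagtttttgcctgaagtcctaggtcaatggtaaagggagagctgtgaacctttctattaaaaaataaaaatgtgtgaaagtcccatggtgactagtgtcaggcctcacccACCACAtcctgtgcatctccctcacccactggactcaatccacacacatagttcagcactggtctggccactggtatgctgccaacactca
Klrb1c: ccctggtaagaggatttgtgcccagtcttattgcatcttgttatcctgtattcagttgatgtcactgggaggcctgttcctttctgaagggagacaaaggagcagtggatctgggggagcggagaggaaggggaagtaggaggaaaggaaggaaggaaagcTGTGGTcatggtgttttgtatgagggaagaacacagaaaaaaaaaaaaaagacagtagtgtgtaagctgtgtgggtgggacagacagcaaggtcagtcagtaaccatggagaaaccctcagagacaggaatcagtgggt

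NK cells made up 22.9% of the kept cells of the Runx3_fl library (2718 of 11885, 95% Clopper-Pearson interval 22.1 to 23.6%) and 1.87% of those of the Runx3 library (153 of 8167, 1.59 to 2.19%). The share was 12.2 times higher in the Runx3_fl library, and 9.19 to 12.4 times higher over the alternative settings. The lymphocyte gates for CD8 T cells (10.6% and 1.22%) and CD4 T cells (10.7% and 1.74%) were also smaller in the Runx3 library, and the gates for B cells (2.89% and 12.7%) and for Csf1r-positive cells (12.7% and 19.0%) were larger. Shares of 1 library sum to a whole, and sorting, pooling of animals and the label cannot be told apart as sources of these differences. The kept cells other than NK cells were shallower in the Runx3 library (median 11317 and 5664 UMIs), whereas the NK cells were not (median 7241 and 8068 UMIs, 2440.5 and 2718 genes). Cells with at least 2000 UMIs were also thinned to 2000 UMIs, and shallower cells were left out. The NK shares were then 17.2% (1939 of 11269) and 1.87% (118 of 6299).

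**Figure D1:**
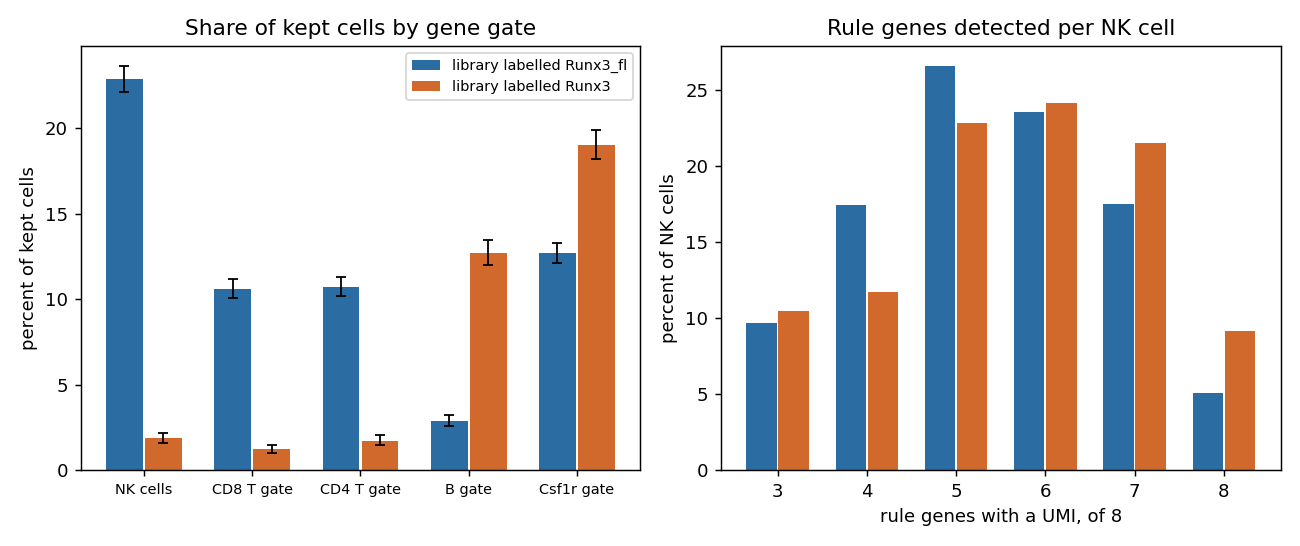
Left, percent of kept cells in the NK cells and in 4 other gene gates (bars) with 95% Clopper-Pearson intervals, for both libraries. Right, percent of NK cells by the number of rule genes with a UMI; NK cells were 22.9% and 1.87% of kept cells, and 5 or 6 rule genes were detected most often in both libraries.

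The rule genes themselves had similar summed levels in the NK cells of both libraries, which is no finding since they chose the cells. Prf1, which encodes perforin, was at 564 and 619.6 CPM, Eomes at 294 and 291, Ncr1 at 101 and 126 and Klra4, an activating Ly49 receptor, at 555 and 441. Just inside the threshold, the cells with 3 rule genes (264 and 16) had Gzma at 4219.9 and 3340.3 CPM and the MHC class II chain gene Cd74 at 456 and 356 CPM. Just outside it, the cells with 2 rule genes that met the other criteria (188 and 39) had Gzma at 1996 and 739.9 CPM and Cd74 at 5009 and 6666 CPM. Of the cells with at least 3 rule genes, 486 of 3204 and 70 of 223 were left out because they held T cell, B cell or Csf1r UMIs, and these were deep (median 16274 and 12346 UMIs). The 2 libraries shared 37 cell barcodes, of which 5 were NK cells in the Runx3_fl library, 2 in the Runx3 library and none in both.

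Sex-linked RNA divided the Runx3_fl library. It held 2756 kept cells with a UMI of Xist, the long noncoding RNA of the inactive X chromosome, and none of 4 Y-linked genes, and 7059 with the reverse, although the study describes pooled male mice for this comparison. NK cells were 24.4% of the first and 24.5% of the second. A further 792 kept cells held both kinds of RNA (median 18496 UMIs) and 1278 held neither (median 3306.5 UMIs). NK cells were 12.5% and 17.1% of these. The Runx3 library held 0 cells with Xist and no Y-linked gene, and NK cells were 2.33% of its 6057 cells with a Y-linked gene and no Xist. Taking only cells with a Y-linked gene and no Xist in both libraries, a choice made after seeing the data, the NK share was 10.5 times higher in the Runx3_fl library.

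The cells chosen by the rule also carried further transcripts of NK cells, and little RNA of several markers of other group 1 innate lymphoid cells. Beside the rule genes, Itga2, the integrin chain recognised by the DX5 antibody, was at 130.3 and 118 CPM in NK cells and 9.79 and 2.62 CPM in the other kept cells. Itgam, which encodes the CD11b of the sort label, was at 139.9 and 133 CPM and had a UMI in 55.8% and 53.6% of NK cells. Transcripts of group 1 innate lymphoid cells that are not NK cells were scarce, with Il7r at 4.07 and 2.90 CPM, Cxcr6 at 2.85 and 1.45 CPM and Cd200r1 at 0.468 and 1.45 CPM, and with Zfp683, which encodes Hobit, at 1 and 0 UMIs. Of the T cell markers not used by the rule, Cd3g was at 12.02 and 5.80 CPM, against 309.7 and 199 CPM in the CD8 T gate, and Cd8a was at 1.03 CPM and 0 UMIs. The rule limits Cd3d, Cd3e and Trac and the CD8 T gate requires them. Low T cell markers therefore follow in part from the choice of cells and do not test their identity. Trbc1, a constant segment of the T cell receptor beta locus that NK cells are known to transcribe, was at 266 and 252 CPM.

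**Figure D2:**
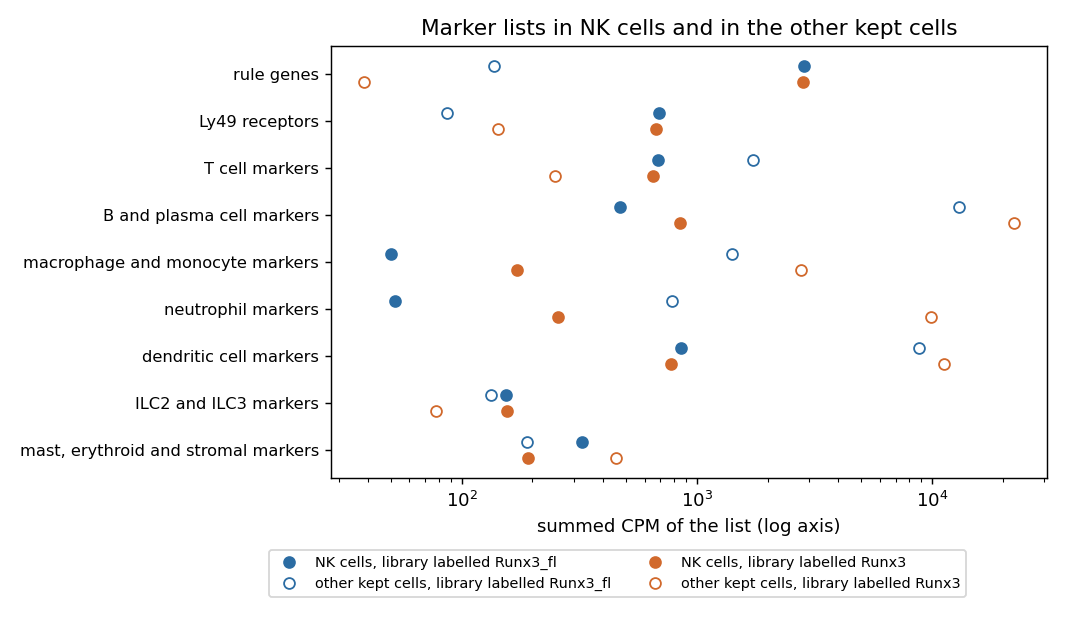
Summed CPM of each marker list (horizontal log axis) in NK cells (filled) and in the other kept cells (open) of both libraries. The rule genes summed to 2848 and 2819 CPM in NK cells, and the B cell, macrophage and neutrophil lists lay at least 10-fold lower in NK cells than in the other cells of the same library.

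Markers of other cell types were present in NK cells at levels that differed between lists and between the libraries. The 8 neutrophil markers summed to 51.8 and 256 CPM in NK cells, beside 788 and 9859.7 CPM in the other kept cells, with none of the 8 at 0 UMIs in either library. The 10 macrophage and monocyte markers summed to 49.9 and 173 CPM, beside 1408 and 2772 CPM in the other cells, again with none at 0, and Lyz2, whose promoter drives the Cre of the study's mice, was at 27.8 and 42.8 CPM. The 10 B and plasma cell markers summed to 473 and 851 CPM, beside 13004 and 22320.0 CPM, with Pax5 at 0 UMIs in the Runx3_fl library. The 13 T cell markers summed to 685 and 654 CPM, below the other cells in the Runx3_fl library and above them in the Runx3 library (1734 and 250.1 CPM), with 1 and 6 members at 0. The 10 dendritic cell markers, which include class II genes, summed to 854 and 777 CPM, beside 8839 and 11291 CPM, with Siglech at 0 UMIs in both libraries and Flt3 and Clec9a at 0 in the Runx3 library. The ILC2 and ILC3 markers summed to 154 and 155 CPM, above the 133 and 77.4 CPM of the other cells, and Gata3, also known in NK cells, gave 100.02 and 119.7 CPM of the NK sums. Il13 was at 0 UMIs in both. The 13 mast, erythroid and stromal markers summed to 324 and 192 CPM, beside 189.9 and 455 CPM, and Pecam1 gave 320.2 and 178 CPM of the NK sums. The part of these cell types and of free RNA in the differences below was not tested, apart from the subtraction of free RNA reported with the alternative settings.

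Within each library, the genes highest in NK cells beyond the rule included Ly49 receptors, the chemokine gene Xcl1 and several developmental regulators. Of 3675 genes past the filter in both libraries (50 CPM or more and a UMI in at least 10% of cells, in NK cells or in the other kept cells), 269, or 7.32%, were at least 2-fold higher in NK cells than in the other kept cells in both, and 10.6% were at least 2-fold lower in both. In the Runx3_fl library alone the shares were 9.93% higher and 15.6% lower, and in the Runx3 library 11.2% and 17.5%. A gene that passed through the other cells alone could hardly be higher in NK cells, and the cells were chosen on 8 of the genes, so these shares and ratios describe the cells and test nothing.

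The 20 genes with the largest ratios were led by inhibitory Ly49 receptors. Klra7, which encodes Ly49G (gene at chr6:130218605-130233322, minus strand, GENCODE M21 on GRCm38), was at 354 and 327 CPM in NK cells and 15.5 and 4.85 CPM in the other cells. Klra9 stood at 148 and 187 against 6.09 and 1.98 CPM and Klra3 at 109 and 82.7 against 5.35 and 1.68 CPM. These paralogous genes share sequence, so counts may be split among them. Xcl1, a chemokine that attracts cross-presenting dendritic cells, was at 601 and 612 against 38.1 and 14.8 CPM. Serpinb9b, of the family of granzyme B inhibitors, was at 117 and 131 against 6.88 and 1.68 CPM.

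Among regulators, Eya1, a transcriptional coactivator and phosphatase, was at 337 and 239 CPM in NK cells and 15.8 and 8.69 CPM in the other cells. Spry2, a feedback inhibitor of receptor tyrosine kinase signalling, was at 321 and 259 against 16.04 and 9.83 CPM, and the zinc finger factor Klf12 at 406 and 368 against 32.4 and 18.5 CPM. Clnk, an adaptor of immunoreceptor signalling, was at 68.7 and 76.9 against 5.46 and 4.07 CPM. Nrarp, a feedback inhibitor of Notch signalling, was at 121 and 119 against 11.04 and 7.45 CPM and Rnf43, a ubiquitin ligase that limits Wnt receptors, at 88.9 and 75.5 against 5.93 and 7.25 CPM. Car2, which encodes a carbonic anhydrase, was at 463 and 335 against 30.2 and 18.3 CPM. The remaining members of the 20 were Itga2, given above, D5Ertd615e, Samd3, Adamts14, Tshz3, Bahcc1, Crim1 and Dhrs3, whose NK levels spanned 51.5 to 529.6 CPM.

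**Figure D3:**
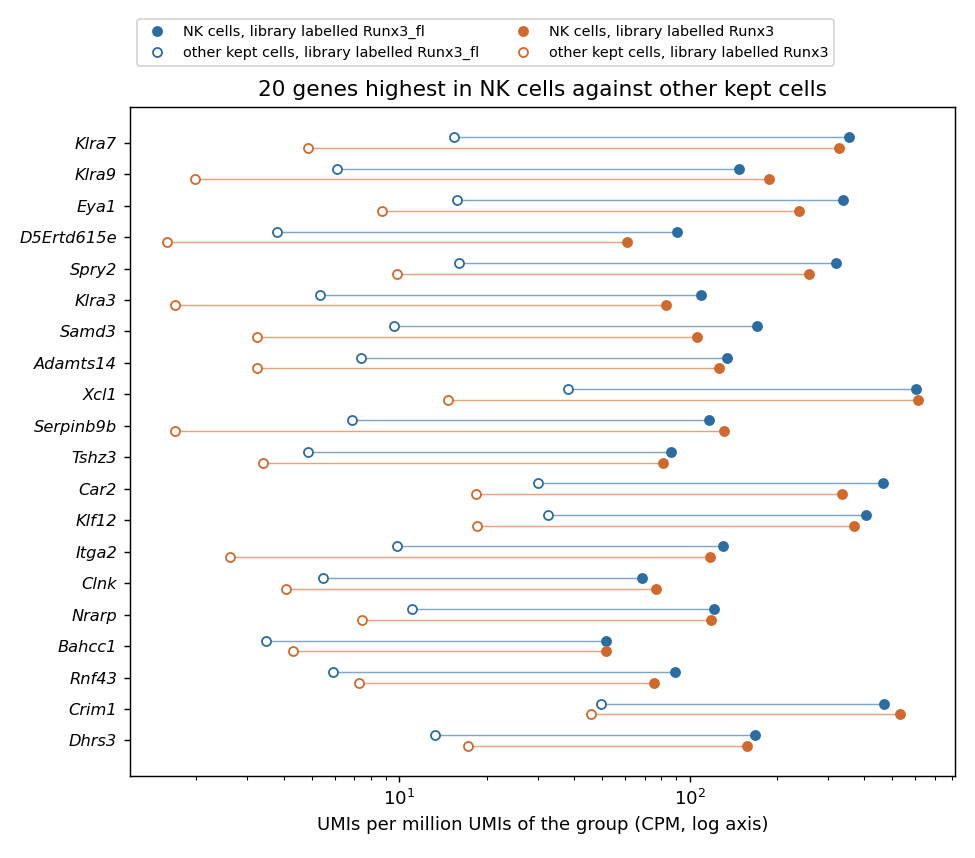
CPM (horizontal log axis) of the 20 genes outside the rule with the largest NK ratios, in NK cells (filled) and in the other kept cells (open) of each library. NK levels of both libraries lay within 2-fold of each other, with log2 ratios from −0.69 for Samd3 to 0.34 for Klra9. They were at least 8-fold above the other cells for every gene shown in both libraries.

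NK cells held more RNA of receptor adaptors than the CD8 T gate of the same library, again as a description of cells chosen by the rule. In the Runx3_fl library, the DAP12 adaptor gene Tyrobp was at 1383 CPM in NK cells and 54.3 CPM in the CD8 T gate, and Fcer1g, which encodes the Fc receptor gamma chain, at 959 and 41.6 CPM. The transcription factor gene Irf8 was at 1429 and 74.2 CPM, and Il2rb, the beta chain shared by the receptors for IL-2 and IL-15, at 1352 and 446 CPM. Gzma was at 5590.4 CPM in NK cells and 3537 CPM in the CD8 T gate, and Gzmb was lower in NK cells, at 949.8 and 2681 CPM. In the Runx3 library, whose CD8 T gate held 100 cells, Gzmb was at 1537 CPM in NK cells and 299 CPM in the CD8 T gate.

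Between the libraries, few genes of NK cells passed the 2-fold limit. Of 3570 genes past the filter in at least 1 library, 49, or 1.37%, were at least 2-fold higher in NK cells of the Runx3 library and 14, or 0.392%, at least 2-fold lower. The median log2 ratio of the 3570 genes was −0.01, and the middle of the distribution, from the lower to the upper quartile, spanned −0.21 to 0.20. The 95% interval lay wholly above 0 for 832 of these genes, or 23.3%, and wholly below 0 for 892. The same rule called 10.1% higher and 13.5% lower in the CD8 T gate, 10.8% and 9.77% in the CD4 T gate, 18.6% and 17.7% in the B gate, and 6.43% and 3.64% in the Csf1r gate. These gates differ in cell number (1259 and 100, 1274 and 142, 344 and 1040, 1509 and 1555 cells) and hold several cell states each, so that a gate can also differ by its makeup.

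The targeted gene was present in NK cells of both libraries. Runx3 (chr4:135120652-135177990, plus strand) was at 859 and 651 CPM, with 18361 and 897 UMIs and a log2 ratio of −0.40, 95% interval −0.50 to −0.30. In the CD8 T gate it was at 232 and 369 CPM and in the Csf1r gate at 164 and 225 CPM. Counts at the 3′ end of the gene do not show whether floxed exons were deleted, so that this value checks neither label. Its relatives Runx1 (1992 and 2005 CPM) and Cbfb, the shared partner subunit (202 and 205 CPM), had log2 ratios of 0.01 and 0.02.

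No NK receptor gene past the filter reached the 2-fold limit in the setting reported, and Crtam did in others. With 1.37% of all genes called higher and 0.392% lower, a count of 0 in short lists says little about receptors. Of 11 Ly49 genes listed beside the rule, 9 were in the files and 3 passed the filter, with a median log2 ratio of −0.11 beside −0.01 for all genes. Klra7 had a log2 ratio of −0.11, 95% interval −0.25 to 0.02, Klra3 of −0.40, 95% interval −0.69 to −0.13 and Klra9 of 0.34, 95% interval 0.15 to 0.52. Of 22 other receptor genes, 12 passed the filter, with a median of −0.22 and 7 intervals wholly below 0. Crtam, a receptor for a nectin-like adhesion molecule, was lowest at 78.3 and 39.9 CPM (log2 ratio −0.96, 95% interval −1.39 to −0.59), and Klrb1f highest at 32.6 and 56.6 CPM (log2 ratio 0.78, 95% interval 0.44 to 1.13). The ratio of Crtam was −1.04 with at least 2 rule genes, −1.14 with at least 4, −1.28 in cells thinned to 2000 UMIs and −1.11 in cells with a Y-linked UMI and no Xist UMI. Klrd1 and Klrc1, which encode the CD94 and NKG2A chains of one inhibitory receptor, were at 379 and 319 CPM (Klrd1) and 240.4 and 239 CPM (Klrc1). The activating receptor gene Klrk1, which encodes NKG2D, was at 376 and 328 CPM.

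The repertoire of receptors per cell also overlapped between the libraries. At 2000 UMIs per cell, which left 2701 and 149 NK cells, 40.2% (38.4 to 42.1%) and 42.3% (34.2 to 50.6%) had none of 4 inhibitory Ly49 genes (Klra1, Klra3, Klra7 and Klra9), 44.9% (43.1 to 46.8%) and 41.6% (33.6 to 49.96%) had 1 and 13.5% (12.2 to 14.8%) and 16.1% (10.6 to 23.01%) had 2. With all UMIs, 10.4% (9.29 to 11.6%) and 9.80% (5.59 to 15.7%) had Klrc1 and none of the 4, and 5.11% (4.32 to 6.01%) and 8.50% (4.60 to 14.1%) had neither. Every one of these intervals overlapped between the libraries. At this depth a gene without a UMI may still be expressed, so these are shares of cells with a UMI.

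Adaptors and kinases of the receptors lay on both sides of 0. Of 20 signalling genes, 16 passed the filter, with a median of −0.08. None passed the 2-fold limit, near the 1.37% of all genes called higher and 0.392% called lower. Tyrobp was at 1383 and 869 CPM (log2 ratio −0.67, 95% interval −0.75 to −0.59), and Hcst, which encodes the DAP10 adaptor of NKG2D, at 317 and 225 CPM (log2 ratio −0.49, 95% interval −0.66 to −0.33). The Tec family kinase gene Txk was at 835 and 525 CPM (log2 ratio −0.67, 95% interval −0.78 to −0.56). On the higher side, Cd247, which encodes the CD3 zeta chain, was at 294 and 481 CPM (log2 ratio 0.71, 95% interval 0.59 to 0.82), and the kinase gene Zap70 that acts downstream of it at 53.8 and 79.1 CPM (log2 ratio 0.55, 95% interval 0.26 to 0.84). Cd247 overlaps another annotated gene on its strand, Gm16565, so its counts are less certain.

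Effector genes were abundant in both libraries, with opposite directions for the main granzymes. Gzma was the most abundant effector gene, at 5590.4 and 3944 CPM (log2 ratio −0.50, 95% interval −0.54 to −0.46), and Gzmb was at 949.8 and 1537 CPM (log2 ratio 0.69, 95% interval 0.63 to 0.76). At 2000 UMIs per cell, Gzma had a UMI in 97.1% (96.4 to 97.7%) and 93.96% (88.8 to 97.2%) of NK cells, beside 5.25% and 1.07% of the B gate, which should lack it. Nkg7, which encodes a cytotoxic granule protein, was at 1078 and 852 CPM and Srgn, the granule proteoglycan, at 2153 and 1719 CPM. Of 22 effector genes, 13 passed the filter, and the median was −0.08. None passed the 2-fold limit, near the 1.37% of all genes called higher and 0.392% called lower. Gzmd, Gzme and Gzmf were under 1 CPM, and Gzmg had no UMI in NK cells of either library.

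Cells with Gzma and Gzmb together made up 89.2% (87.95 to 90.3%) and 87.6% (81.3 to 92.4%) of NK cells, and with Prf1 as well 81.1% (79.6 to 82.6%) and 83.7% (76.8 to 89.1%). At 2000 UMIs the shares with Gzma and Gzmb were 67.8% (66.03 to 69.6%) and 74.5% (66.7 to 81.3%), the reverse of the order with all UMIs. With Prf1 as well they were 43.4% (41.5 to 45.2%) and 51.7% (43.4 to 59.9%). Cells with both Gzmb and Ifng were 73.7% (71.96 to 75.3%) and 71.2% (63.4 to 78.3%) of the total with all UMIs. At 2000 UMIs they were 36.2% (34.4 to 38.05%) and 42.3% (34.2 to 50.6%).

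Among secreted products, Ccl5, a chemokine for T cells and monocytes, was the highest and was lower in the Runx3 library, at 7837 and 4925 CPM (log2 ratio −0.67, 95% interval −0.71 to −0.64). Ccl3 was at 675 and 759 CPM (log2 ratio 0.17, 95% interval 0.08 to 0.26) and Ccl4 at 1337 and 1129.6 CPM (log2 ratio −0.24, 95% interval −0.32 to −0.17). Ifng, the main cytokine of NK cells, was at 469.6 and 443 CPM (log2 ratio −0.08, 95% interval −0.20 to 0.03), Xcl1 at 601 and 612 CPM and Tgfb1 at 571 and 576 CPM. The intervals of the last 3 genes held 0. Of 16 genes of this group 6 passed the filter, none at 2-fold, near the 1.37% and 0.392% of all genes called higher and lower.

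Receptors for the cytokines that activate NK cells were split. Il2rb was at 1352 and 1503 CPM (log2 ratio 0.15, 95% interval 0.09 to 0.22) and Il12rb2, a chain of the IL-12 receptor, at 581 and 696 CPM (log2 ratio 0.26, 95% interval 0.16 to 0.36). The IL-18 receptor chains were lower in the Runx3 library, Il18r1 at 261 and 140.0 CPM (log2 ratio −0.89, 95% interval −1.11 to −0.69) and Il18rap at 543 and 395 CPM (log2 ratio −0.46, 95% interval −0.59 to −0.34). With at least 2 rule genes, the ratio of Il18r1 was −1.01. Ifngr1 was at 939.5 and 683 CPM (log2 ratio −0.46, 95% interval −0.56 to −0.37). In all, 12 of 15 genes passed the filter, 3 with an interval above 0 and 6 below, and none at 2-fold.

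The lineage factors lay within 2-fold in the setting reported. Of 24 transcription factor genes, 21 passed the filter, with a median log2 ratio of 0.01, and none passed the 2-fold limit, with 4 intervals wholly above 0 and 10 wholly below. Prdm1, which encodes the repressor Blimp-1, had a log2 ratio of 0.12, and of −1.40 in cells thinned to 2000 UMIs. Tbx21 was at 307 and 354 CPM (log2 ratio 0.21, 95% interval 0.07 to 0.34), Id2, an inhibitor of E proteins needed for innate lymphocytes, at 1277 and 1154 CPM (log2 ratio −0.15, 95% interval −0.22 to −0.07), and Irf8 at 1429 and 1193 CPM (log2 ratio −0.26, 95% interval −0.33 to −0.19). Ets1 was at 614 and 499 CPM (log2 ratio −0.30, 95% interval −0.41 to −0.19) and Lef1 at 96.7 and 66.7 CPM (log2 ratio −0.53, 95% interval −0.85 to −0.23).

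**Figure D4:**
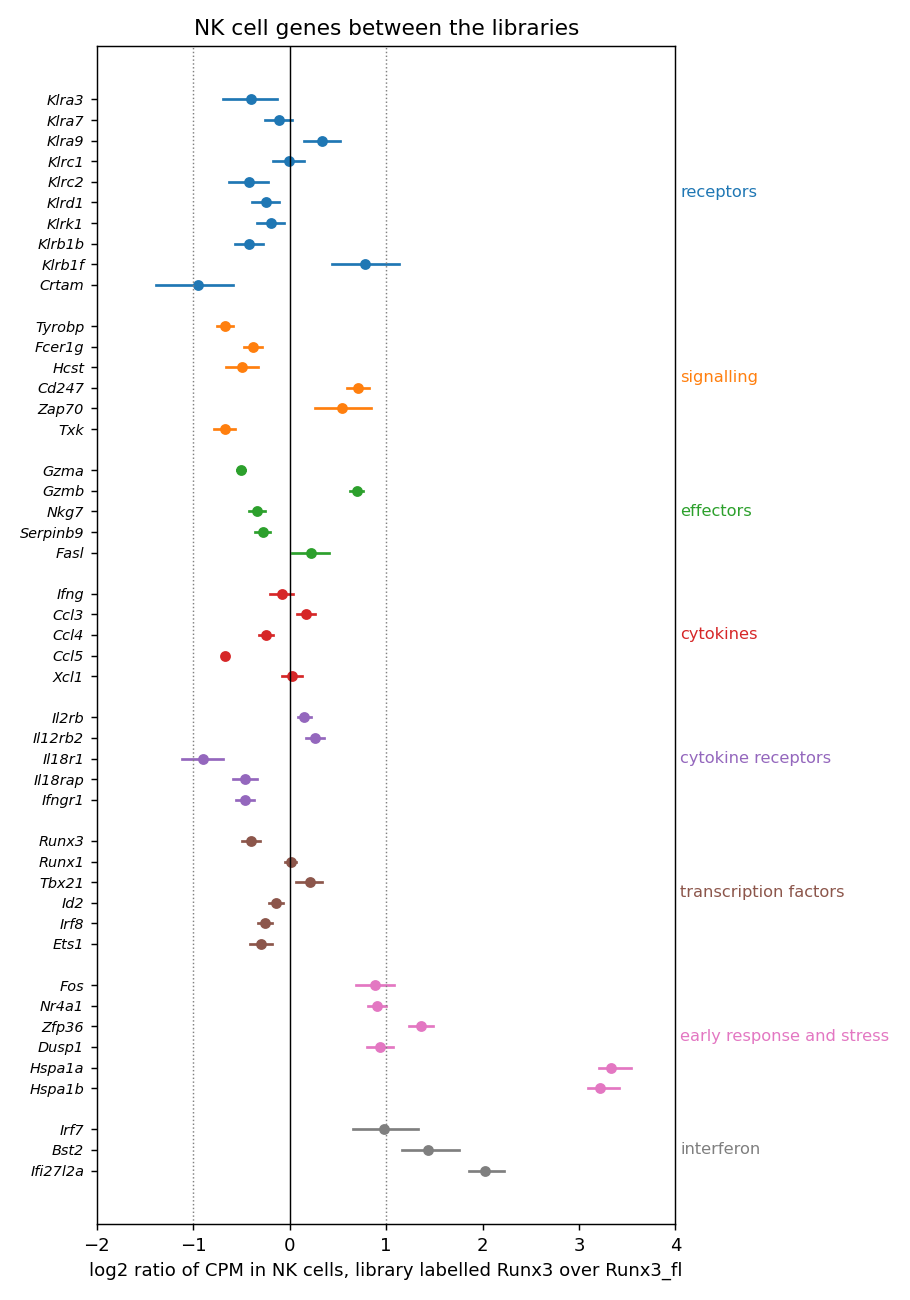
Log2 ratio of CPM in NK cells, Runx3 over Runx3_fl library, with 95% counting intervals (horizontal axis), for genes grouped by role; dotted lines mark 2-fold. Receptor, effector and factor genes lie within 2-fold, whereas Zfp36, Hspa1a, Hspa1b, Bst2 and Ifi27l2a lie above it.

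Markers of maturation gave no common direction. Of 11 genes of mature NK cells 8 passed the filter and 1 was called higher, beside 1.37% of all genes. It was Ly6c2, at 74.6 and 207 CPM (log2 ratio 1.46, 95% interval 1.29 to 1.66), and at 529.7 and 1407 CPM in the other kept cells. Of 10 genes of immature NK cells 6 passed and 1 was called lower, beside 0.392% of all genes. It was Cd7, at 104 and 42.8 CPM (log2 ratio −1.26, 95% interval −1.68 to −0.91). The ratio of Cd7 was −0.81 in cells thinned to 2000 UMIs, short of the limit. Thy1 was at 163 and 266 CPM (log2 ratio 0.71, 95% interval 0.55 to 0.87). Itgam and Cd27, which order NK maturation by their proteins, were scored by UMI: 41.6% (39.8 to 43.5%) and 36.6% (28.97 to 44.8%) of NK cells had Itgam only, 14.1% (12.8 to 15.5%) and 16.99% (11.4 to 23.9%) both, 11.4% (10.2 to 12.6%) and 7.84% (4.12 to 13.3%) Cd27 only and 32.9% (31.1 to 34.7%) and 38.6% (30.8 to 46.8%) neither. The 4 pairs of intervals overlapped. At 2000 UMIs per cell, 69.5% (67.8 to 71.3%) and 73.8% (66.0 to 80.7%) had neither. Both genes had a UMI in 1.555% (1.12 to 2.10%) and 0.671% (0.0170 to 3.68%), the latter 1 cell of 149. These shares therefore depend on depth, and a gene without a UMI may still be expressed.

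Of 14 genes of tissue residency and of other group 1 cells, only Cd69 and Rora passed the filter, Cd69 at 240.2 and 176 CPM. Of 23 homing genes 13 passed, none at 2-fold, near the 1.37% and 0.392% of all genes called higher and lower. Itga4, an integrin chain that pairs with Itgb7 in gut homing, was the most abundant at 1791 and 1426 CPM, and Ccr9, the receptor for a chemokine of the small intestine, was at 1.54 CPM and 0 UMIs. Of 9 checkpoint genes 5 passed and 1 was called lower, beside 0.392% of all genes. It was Ctla4, at 78.1 and 30.5 CPM (log2 ratio −1.33, 95% interval −1.84 to −0.92), and at 453 and 51.8 CPM in the other kept cells. Tnfrsf9, which encodes the costimulatory receptor 4-1BB, was at 528 and 393 CPM (log2 ratio −0.42, 95% interval −0.55 to −0.30).

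Stress, immediate early and interferon response genes lay higher in NK cells of the Runx3 library. Of 26 immediate early and stress genes, all passed the filter, 4 were called higher and none lower (beside 1.37% and 0.392% of all genes), 21 intervals lay above 0 (beside 23.3% of all genes), and the median was 0.49. The paralogous heat shock genes Hspa1a and Hspa1b, whose reads can be split between them, were at 33.4 and 346 CPM (Hspa1a) and at 39.5 and 376 CPM (Hspa1b). Zfp36, which encodes an mRNA decay factor, was at 183 and 471 CPM (log2 ratio 1.36, 95% interval 1.24 to 1.48), and the co-chaperone gene Hsph1 at 61.01 and 160.3 CPM. The ratio of Hsph1 was 1.38, and 0.88 in cells thinned to 2000 UMIs, which ends its call. Nr4a1, an orphan nuclear receptor gene induced by receptor signalling, was at 416 and 781 CPM (log2 ratio 0.91, 95% interval 0.81 to 1.00). The same 26 genes had medians of 1.26 in the CD8 T gate, 1.06 in the CD4 T gate, 1.35 in the B gate and 1.07 in the Csf1r gate.

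Of 20 interferon response genes found in the files, 10 passed the filter, 3 were called higher and none lower (again beside 1.37% and 0.392% of all genes), and the median was 0.65, beside 0.86 for the same genes in the CD8 T gate and 0.35 in the Csf1r gate. Ifi27l2a was at 54.7 and 226 CPM (log2 ratio 2.02, 95% interval 1.86 to 2.22), Bst2, which encodes tetherin, at 29.7 and 81.98 CPM, and the nucleic acid sensor gene Zbp1 at 24.2 and 60.9 CPM. The 20 genes summed to 701 and 1282 CPM in NK cells and to 3302 and 6055 CPM in the other kept cells. Irf7 and Gbp2, not among the 3, had log2 ratios of 0.98 and 0.56, and of 1.60 (Irf7, with at least 2 rule genes) and 1.07 (Gbp2, in thinned cells), past the limit.

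Cell cycle transcripts were below the other kept cells in the Runx3_fl library and close to them in the Runx3 library. The 18 listed genes summed to 1063 and 1285 CPM in NK cells and to 2967 and 1119 CPM in the other cells. Of the 18, 7 passed the filter and 1 was called higher, beside 1.37% of all genes. It was Mcm5, a subunit of the replicative helicase, at 10.9 and 50.1 CPM (log2 ratio 2.10, 95% interval 1.78 to 2.59). Top2a, a topoisomerase of S to M phase, was at 61.7 and 50.1 CPM and Mki67 at 37.6 and 29.7 CPM. Cells with UMIs of 2 or more of 7 mitosis genes made up 5.70% (4.86 to 6.64%) and 8.50% (4.60 to 14.1%) of NK cells with all UMIs. At 2000 UMIs per cell the order was the reverse, at 1.78% (1.31 to 2.35%) and 0.671% (0.0170 to 3.68%), the latter 1 cell of 149.

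Glycolysis genes leaned higher in NK cells of the Runx3 library, without a call. All 14 of 15 that passed the filter had ratios above 0, from 0.05 to 0.76, and the median was 0.39. Intervals lay above 0 for 9 of them, beside 23.3% of all genes. In other settings the lowest ratios of Hk1, Hk2, Ldha and Slc2a1 were below 0, at −0.16, −0.29, −0.14 and −0.05. Tpi1 was at 55.3 and 94.3 CPM (log2 ratio 0.76, 95% interval 0.50 to 1.03) and Gapdh at 405 and 533 CPM (log2 ratio 0.39, 95% interval 0.28 to 0.50). The same genes had a median of −0.78 in the CD8 T gate. Of 13 MHC class I genes all passed, none at 2-fold, near the 1.37% and 0.392% of all genes called higher and lower. B2m was at 2218 and 3415 CPM (log2 ratio 0.62, 95% interval 0.58 to 0.67), and the class I heavy chain genes H2-K1 at 2181 and 2422 and H2-D1 at 1325 and 1294 CPM.

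Several of the largest ratios belonged to genes of other cell types. S100a8 and S100a9, which encode the calprotectin subunits of neutrophils, were at 8.42 and 94.3 CPM (S100a8) and 18.6 and 118 CPM (S100a9) in NK cells. In the other kept cells S100a8 was at 192 and 4751 CPM and S100a9 at 261 and 4196 CPM. At 2000 UMIs, S100a8 had a UMI in 1.04% (0.690 to 1.49%) and 17.4% (11.7 to 24.5%) of NK cells. In the Runx3 library the share was 22.4% in the CD8 T gate, 26.04% in the Csf1r gate and 20.95% in the B gate, which should lack the gene and had 1.46% in the Runx3_fl library, so no expression of S100a8 by NK cells is read from it. After subtraction of free RNA, which left both genes at 0 in NK cells of the Runx3 library, the log2 ratios of S100a8 and S100a9 were −1.50 and −3.45. Igha, the constant gene of IgA, was at 95.02 and 342 CPM with a UMI in 17.8% (16.4 to 19.3%) and 44.3% (36.2 to 52.7%) of NK cells, beside 14.98% and 54.1% of the CD8 T gate, which should lack it. The ratio of Igha was 1.84, and 0.90 in cells thinned to 2000 UMIs, and the subtraction of free RNA left Igha at 0 in both libraries. Cst3, which encodes a protease inhibitor abundant in myeloid cells, was lower, at 393 and 100.1 CPM (log2 ratio −1.96, 95% interval −2.23 to −1.73), and its ratio was 0.069 when the rule was read on cells thinned to 2000 UMIs and −0.17 after doublet removal.

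The other genes with the largest ratios are named by rank. Hes1, a Notch target gene, was at 13.7 and 61.7 CPM (log2 ratio 2.10, 95% interval 1.81 to 2.53), Gm19951 at 26.8 and 110.3 CPM and Slc15a2, a peptide transporter gene, at 15.1 and 54.4 CPM. In NK cells of the Runx3_fl library, Slc15a2 was at 50.2 CPM in cells with Xist and no Y-linked gene and 0.883 CPM in the reverse, and its log2 ratio of 1.79 became 4.89 when only cells with a Y-linked gene and no Xist were compared. On the lower side, Ctnnd2, which encodes a catenin, was at 106 and 9.43 CPM (log2 ratio −3.35, 95% interval −4.40 to −2.71), and it did not pass the filter in any of the 4 other gates. With 2 rule genes in place of 3 its ratio was −1.32. Camk4, a calcium and calmodulin-dependent kinase gene, was at 345 and 108 CPM (log2 ratio −1.67, 95% interval −1.92 to −1.44). Ncaph was at 51.5 and 21.04, Mid1 at 148 and 64.6, Ipcef1 at 69.7 and 29.7 and Gm47283 at 1309 and 534 CPM. Xist was at 196 CPM and 0 UMIs, at least 90.2-fold lower against the limit that a count of 0 allows (3 counts, 2.18 CPM).

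**Figure D5:**
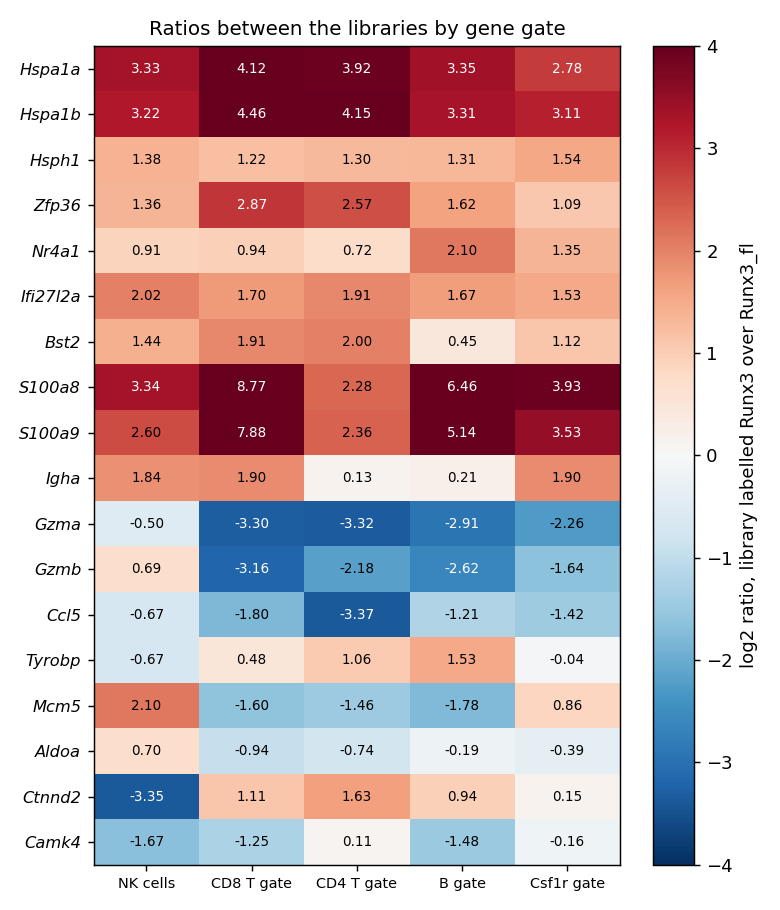
Log2 ratio of CPM, Runx3 over Runx3_fl library (colour, saturated beyond 4 in either direction, with the value printed), for 18 genes (rows) in NK cells and 4 other gates (columns). Hspa1a, Hspa1b, Zfp36, Ifi27l2a, S100a8 and S100a9 are above 0 in all 5 columns, whereas Gzmb and Mcm5 in NK cells and in the CD8 T gate have opposite signs. A value is drawn also for a gene that did not pass the filter in a gate, as for Ctnnd2 in all 4 other gates.

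Genes called higher in NK cells were often called higher in the other gates too. Of the 49 genes called higher in NK cells, 44 passed the filter in the CD8 T gate and 29 of those were called higher and 4 lower there, beside 10.1% and 13.5% of all genes. In the CD4 T gate 29 of 43 were called higher and 3 lower (10.8% and 9.77% of all genes), in the B gate 23 of 45 and 7 (18.6% and 17.7%), and in the Csf1r gate 26 of 44 and 2 (6.43% and 3.64%). Of the 14 called lower, 7 of 12 were called lower in the CD8 T gate, 3 of 10 in the CD4 T gate, 2 of 6 in the B gate and 3 of 5 in the Csf1r gate, beside 13.5%, 9.77%, 17.7% and 3.64% of all genes, and none was called higher in these gates. All gates come from the same 2 libraries, so a difference between the libraries as wholes enters each of them. Gm42418, which overlaps ribosomal RNA sequence and was chosen here after its values were seen, was at 7181 and 20374 CPM and is part of the total to which all levels are scaled.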

How the data were processed

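The authors' deposited matrices held raw UMI counts per gene and cell barcode for 1 library each, made with the 10x Genomics 3′ kit (version 3) and Cell Ranger 7.1.0 per the file headers; the processing notes name mm10 and Seurat 4. No per-cell annotation was used. The NK cells and the 26 gene lists were chosen with earlier results of these data known. Counts were summed over the NK cells of a library and scaled to CPM, and ratios were log2((CPM + 1)/(CPM + 1)) with an exact 95% binomial interval of the count ratio. Genes at 50 CPM or more with a UMI in at least 10% of cells were kept if they reached both in NK cells of either library or, within a library, in NK cells or the other kept cells, and a log2 ratio of 1 in size was the limit for a call. No p-value was computed, because each group was 1 library. The other gates were CD8 T and CD4 T (Cd3d, Cd3e and Trac summing to 2 or more, with Cd8a or Cd8b1, or with Cd4, alone), B (Cd79a at 2 or more) and Csf1r (Csf1r at 2 or more). Named genes were the list members, the 10 largest ratios in each direction and the 20 genes highest in NK cells of both libraries. Doublets were limited by the 6000-gene maximum, and a neighbour-based removal was an alternative. Coordinates are from GENCODE M21, in which 32158 of 32285 gene IDs matched. Deposited totals were 146204416 and 75478164 UMIs, and NK cells held 21374824 and 1378399, so 3 UMIs, the limit that a count of 0 allows, were 0.140 and 2.18 CPM. In counts drawn from known ratios, 95.8% of intervals for the comparison of NK cells between the libraries (3570 genes) held the true value. This check covers counting error only, and cannot show how far animals or libraries differ. Of 353 list entries, 349 were in the files. Python 3.11.15, numpy 2.4.6, scipy 1.17.1 and pandas 2.3.3 were used.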

Additional observations from a re-analysis of the deposited data

Results flagged for a closer look

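Genes were listed here when the ratio between the libraries was at least 0.5 on the log2 scale in size in NK cells and of the opposite sign, at that size or more, in the CD8 T or Csf1r gate; the difference between the gates was not tested, since each gate came from 1 library per group. Against the CD8 T gate, the ratios in NK cells were 0.69 for Gzmb, which was −3.16 in that gate, −0.53 for Lef1 (1.40 there), 1.46 for Ly6c2 (−0.71 there), −1.26 for Cd7 (0.91 there), 0.71 for Thy1 (−0.54 there) and −0.85 for Pecam1 (0.85 there). Cell cycle genes were among them, with Tubb5 at 0.51 (−1.07 there) and Mcm5 at 2.10 (−1.60 there). Glycolysis genes were also among them, with Slc2a3 at 0.54 (−0.66 there), Aldoa at 0.70 (−0.94 there), Tpi1 at 0.76 (−0.90 there) and Pgk1 at 0.74 (−1.07 there). Against the Csf1r gate, the ratios in NK cells were 0.56 for Gbp2 (−1.16 there), 0.62 for Gbp4 (−1.15 there), 0.74 for Pgk1 (−0.65 there) and −0.85 for Pecam1 (0.71 there). The CD8 T gate of the Runx3 library held 100 cells and had S100a8 at 4387 CPM.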

How the results depend on the processing

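The NK share was higher in the library labelled Runx3_fl under every setting run. It was 24.5% and 2.35% with at least 2 of the 8 rule genes, 20.6% in the Runx3_fl library with at least 4, 18.9% and 1.58% with no T cell UMI allowed, 17.2% in the Runx3_fl library with cells thinned to 2000 UMIs, 23.8% there after doublet removal, and 24.5% and 2.33% in cells with a Y-linked UMI and no Xist UMI, a setting chosen after seeing the data. Genes called higher numbered 49, and 81 with at least 2 rule genes, 96 with thinned cells and 314 with a filter of 10 CPM and no limit on cells; genes called lower numbered 14, and 58 and 79 in the last 2 of these settings. The thinned cells hold fewer UMIs, the 10 CPM filter adds genes with fewer UMIs, and the cause of these differences was not tested. Genes at least 2-fold higher in NK cells than in other cells of both libraries numbered 269, and 432 with the 10 CPM filter. Of 226 named ratios, 117 were counted as moved with thinned cells and 48 with at least 2 rule genes. Among those past 2-fold, Cst3 reversed to 0.069 with thinned cells. S100a8 and S100a9 reversed to −1.50 and −3.45 after subtraction of free RNA, whose share was estimated at 4.26% and 5.44%. Ratios short of 2-fold also changed sign, as with thinned cells for Lamp1 (0.60 to −0.29), Plcg2 (0.37 to −0.18) and Ldha (0.16 to −0.14). Of 25 named ratios past 2-fold, 21 to 25 kept their call in each setting. No paired analysis was possible because each group was 1 library. With 153 NK cells in the Runx3 library, single genes near 50 CPM rest on about 69 UMIs, as for Mcm5, and differences between animals within a pool cannot be seen.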

Other observations

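Within the library labelled Runx3_fl, the 673 NK cells with Xist and no Y-linked gene and the 1728 with a Y-linked gene and no Xist were close in NK genes. Of 3390 genes past the filter, 4 were at least 2-fold higher in the first and 6 at least 2-fold lower, Xist and the Y-linked genes Ddx3y, Uty and Eif2s3y included. The other genes higher in the cells with Xist were Slc15a2 (50.2 and 0.883 CPM), Hspa1b (89.5 and 21.996 CPM) and Hspa1a (55.4 and 25.3 CPM), and the others lower were Gzmc (29.4 and 64.7 CPM), Cxcl2 (46.8 and 132.6 CPM) and Il1b (23.1 and 81.6 CPM). Gzma was at 5629 and 5695 CPM, Gzmb at 1057 and 915 CPM, and Runx3 at 830.4 and 889 CPM. Slc15a2 in NK cells of the library labelled Runx3, which held no cell with Xist and no Y-linked gene, was at 54.4 CPM. These groups were made from sex-linked counts, and nothing in the labels gives the sex of the animals.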
